A study of Mus musculus with 6 samples.

Results

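The phagocyte NADPH oxidase was followed through the transcripts of 6 genes, Cybb, Cyba, Ncf1, Ncf4, Rac2 and Hvcn1, out of 49585 genes counted in sorted mouse microglia. They were taken by name: the membrane subunits (Cybb, Cyba), cytosolic subunits (Ncf1, Ncf4), the GTPase that switches the complex on (Rac2) and the proton channel that works beside it (Hvcn1). The libraries came from male mice aged 3 months, 3 labelled WT and 3 labelled IRF8KO, each from its own brain, and the labels give no sorting gate and no design of the Irf8 allele. The series compares the genotypes, and IRF8KO below means the libraries with that label.

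The oxidase moves electrons from NADPH in the cytosol across the phagosome or plasma membrane to oxygen, which makes superoxide. Its catalytic core is a heterodimer of gp91phox (Cybb, also called NOX2) and p22phox (Cyba); p47phox (Ncf1), p40phox (Ncf4) and Rac are among the proteins that join it from the cytosol when the cell is stimulated. The voltage-gated proton channel Hvcn1 carries protons out and so balances the charge that the electrons take with them. In microglia the enzyme is known as a source of the oxidative burst in response to microbes and debris, and in myeloid cells IRF8 and its partner PU.1 are known to bind the Cybb promoter.

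Depth ranged from 3658917 gene counts in WT replicate 1 to 11098363 in IRF8KO replicate 3. Values are CPM, read counts scaled by TMM to a common library size. A call means an adjusted p (Benjamini-Hochberg, over 11041 tested genes) under 0.05 in edgeR's quasi-likelihood test. There were 2109 calls, a background of 19.1%, and 33.7% of tested genes had an unadjusted p under 0.05. Irf8 itself stood at 795, 851 and 1403 CPM in the WT libraries (replicates 1 to 3) and at 743, 650.0 and 849.6 CPM in the IRF8KO libraries. Its log2 fold change was -0.44 (SE 0.33), with no call (adjusted p = 0.368, edgeR quasi-likelihood); it was -0.90 with a call when scaled by library size alone (0.00763) and -0.11 without WT replicate 3 (0.676). Counts summed over the gene cannot tell whether an exon was removed, so the directions below rest on the labels. All 11 microglial markers used for the check were tested, with 6 called lower and 1 higher; of the 6, Sall1 passed the filter on low counts through WT only. Their summed level, of which Csf1r and Tmem119 (neither called) made up the larger part, ran from 39130 to 67980 CPM in WT and from 30690 to 44990 CPM in IRF8KO. Among the called ones, P2ry12 fell from 848 ± 384 to 48.4 ± 44.8 CPM and Gpr34 from 429 ± 210.5 to 48.9 ± 37.8 CPM, Sall1 had 143, 127 and 51.0 CPM in WT replicates 1 to 3 and 0 reads in IRF8KO, while Fcrls went up from 2622 ± 652 CPM (WT) to 6669 ± 1188 CPM (IRF8KO; SD, n = 3 each).

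Of the 6 oxidase genes, Cybb, the catalytic subunit, was close to absent in WT and present at a low level in every IRF8KO library, and it was the 1 member called. Cyba, Ncf4 and Rac2 had means about as much higher as each other in IRF8KO, 1.59, 1.65 and 1.64 times those of WT, but these differences missed the threshold. Ncf1 had a mean 0.807 times that of WT and Hvcn1 one of 1.07 times, neither called. All 6 genes passed the filter on low counts, but Cybb passed it through its IRF8KO libraries only and so had to differ to be tested at all. Its level in each library is therefore the result given here, and its call is no support beyond that; of the other 5 members 0 were called by edgeR, DESeq2 or limma-voom (2, Ncf4 and Rac2, had an unadjusted p under 0.05 in edgeR), where 19.1% of all tested genes were called.

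**Figure D1:**
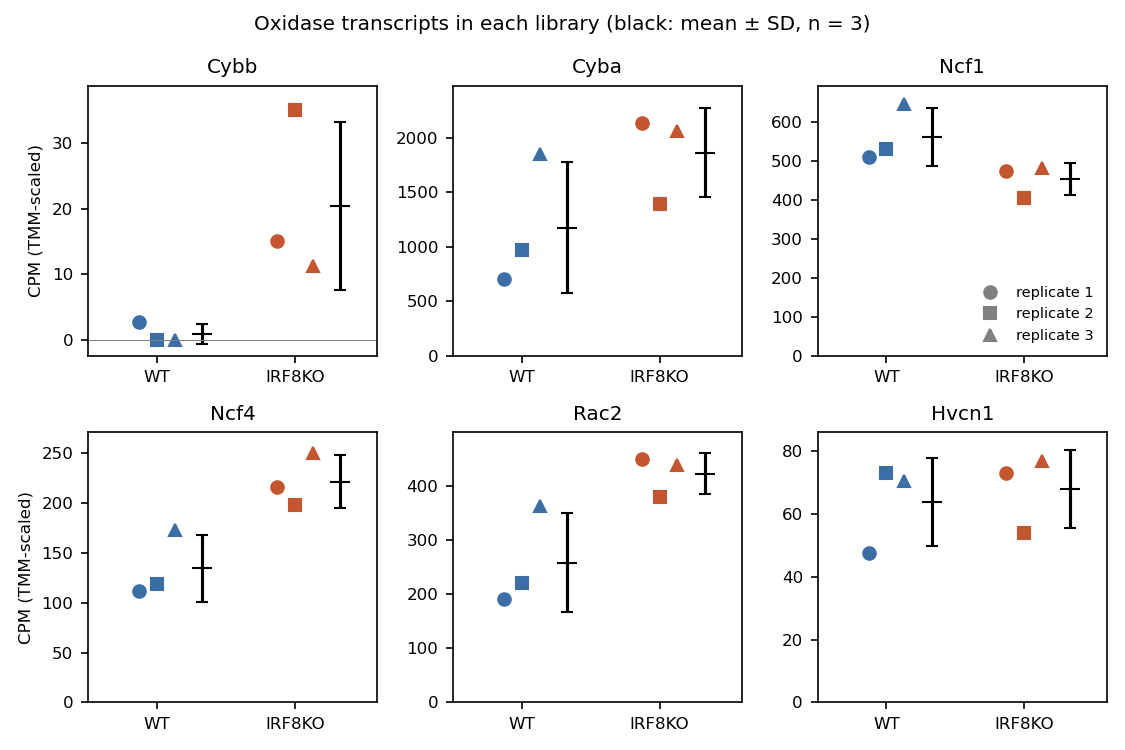
CPM of each oxidase gene in each library, on linear axes from 0, with the mean and SD of 3 libraries beside the points. Cybb is at or near 0 in WT replicates 2 and 3 and highest in IRF8KO replicate 2 (35.1 CPM); in the Cyba, Ncf1, Ncf4 and Rac2 panels WT replicate 3 is the highest WT library and IRF8KO replicate 2 the lowest IRF8KO library.

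Cybb (ENSMUSG00000015340, chromosome X, 9435252 to 9487771, minus strand) encodes gp91phox, which carries the haems and the NADPH site. It had 14, 1 and 0 reads in WT replicates 1, 2 and 3, and 94, 391 and 104 reads in IRF8KO replicates 1, 2 and 3. As levels these were 2.72, 0.0708 and 0 CPM against 15.1, 35.1 and 11.3 CPM, and the 0 of WT replicate 3 allows up to 0.414 CPM, the worth of 3 counts. The groups did not overlap, and WT replicate 1, the shallowest library, held 93.3% of the WT reads. The fitted log2 fold change was 4.74 (SE 1.09; edgeR quasi-likelihood, Benjamini-Hochberg adjusted p = 0.0105), with IRF8KO higher in 3 of 3 libraries. Pooled over libraries there were 589 reads against 15, 39.1 times as many after scaling (exact 95% interval 23.5 to 70.4), an interval that covers counting error only and not the spread between mice.

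The size of the Cybb difference depended on single libraries. As Cybb passed the filter through IRF8KO only, its sign and its adjusted p in these fits are no support. Without WT replicate 1 the log2 fold change was 8.44 (edgeR quasi-likelihood, adjusted p = 0.00012), and in the other fits that left out 1 library it lay between 3.99 and 5.03, with adjusted p up to 0.0373. Scaling by library size alone gave 4.12 with an adjusted p of 0.0682 (that fit called 23.2% of all tested genes), and doing so after removing the counts of Apoe gave 4.61 (adjusted p = 0.0512, edgeR quasi-likelihood).

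Summed markers of other myeloid cells were also higher in every IRF8KO library than in WT, though not all followed Cybb from library to library. The 12 neutrophil markers, among them S100a8 and Ly6g, summed to 5.78, 366 and 2.06 CPM in IRF8KO replicates 1, 2 and 3 and to between 0 and 0.195 CPM in WT, where 10 of the 12 had no read. The 10 monocyte markers summed to 4.33, 67.0 and 2.49 CPM in the same IRF8KO libraries and to between 0.414 and 1.49 CPM in WT. IRF8KO replicate 2 was thus the highest library for Cybb and for both lists. Without it the fitted log2 fold change of Cybb was 4.06, and IRF8KO replicates 1 and 3 had a mean of 13.2 CPM. The 12 markers of border-associated macrophages, such as Mrc1 and Pf4, summed to 612, 659 and 835 CPM in WT replicates 1 to 3. In IRF8KO replicates 1 to 3 they summed to 5036, 3819 and 4517 CPM, lowest where Cybb was highest. Stab1 made up most of the WT sum, at 602, 651 and 823 CPM in WT replicates 1 to 3, and Pf4 had 1.79 ± 0.935 CPM in WT and 1881 ± 321 CPM in IRF8KO, while Lyve1 and Cd209f had 0 reads in every library. Several of these markers passed the filter on low counts through the IRF8KO libraries only, so their calls are not counted here. In WT replicate 1, which had most of the WT Cybb reads, the neutrophil and monocyte sums were 0.195 and 0.584 CPM. The part of these cells in the Cybb difference was not tested. In bulk libraries more cells of a type and more RNA per cell cannot be told apart.

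**Figure D2:**
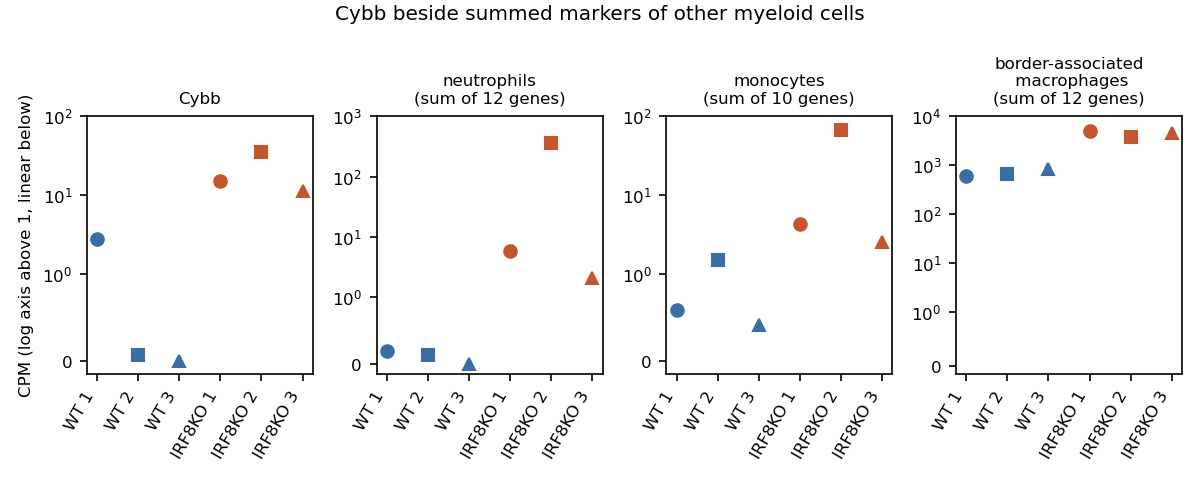
Cybb and the summed CPM of 3 marker lists in each library, on axes that are logarithmic above 1 and linear below. IRF8KO replicate 2 stands out in the neutrophil (366 CPM) and monocyte (67.0 CPM) panels, whereas all 3 IRF8KO libraries lie between 3819 and 5036 CPM for border-associated macrophages.

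The start of Cybb holds the letters that PU.1 and IRF proteins are known to bind together. RefSeq windows on GRCm38.p6, 250 bases before to 50 after a gene's start, were at hand for 3 of the 6 members, and they are shown from 100 bases before the start to 20 after it because Cybb and Cyba encode the partners of the core yet differed in level and in change. Capitals mark matches, searched on both strands, to the letters GGAA then GAAA with 2 free bases between them (PU.1 and IRF side by side) or GAAA then GAAA with the same gap (an IRF pair). The window of Cybb is chrX:9469305-9469424, that of Cyba chr8:122432921-122433040 and that of Ncf1 chr5:134229606-134229725, all read on the minus strand; the RefSeq start of Cybb lies inside the span given above for the gene.
Cybb: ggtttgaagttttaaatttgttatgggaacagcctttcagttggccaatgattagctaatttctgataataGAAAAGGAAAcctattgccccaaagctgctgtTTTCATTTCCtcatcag
Cyba: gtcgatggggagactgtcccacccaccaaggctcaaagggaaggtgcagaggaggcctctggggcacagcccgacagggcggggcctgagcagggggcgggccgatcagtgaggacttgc
Ncf1: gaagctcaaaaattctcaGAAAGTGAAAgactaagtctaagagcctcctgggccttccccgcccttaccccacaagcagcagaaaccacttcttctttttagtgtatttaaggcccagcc

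Over the full 300 bases, Cybb had 1 match to the PU.1-IRF letters, on the reverse strand from base 4 to base 13 after its start, where a match to the PU.1 core GAGGAA (bases 10 to 15) overlaps it. It also had 3 matches to the IRF pair, from 168 to 159, 124 to 115 and 29 to 20 bases before the start, and a CCAAT box from 56 to 52 bases before it. Ncf1 had 1 IRF pair, from 82 to 73 bases before its start, and Cyba had no match to any of the 4 motifs. Among 32851 windows of this length, 2.72% held the PU.1-IRF letters, 3.44% the IRF pair, 28.3% GAGGAA and 37.4% CCAAT on either strand. A match is a description of the letters and says nothing of whether a protein was bound in these cells.

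Cyba (ENSMUSG00000006519, chromosome 8, 122424776 to 122432930, minus strand) encodes p22phox, which holds gp91phox stable in the membrane and gives p47phox its docking site. Its levels were 706.6, 967.8 and 1852 CPM in WT replicates 1 to 3 and 2134, 1396 and 2064 CPM in IRF8KO replicates 1 to 3. WT replicate 3 lay above IRF8KO replicate 2, so the groups overlapped. Its log2 fold change was 0.67 (SE 0.40), with no call (adjusted p = 0.261, edgeR quasi-likelihood). It was called at 1.18 without WT replicate 3 (adjusted p = 0.00388) and at 0.72 when libraries were scaled by size after removing Apoe (0.0443), and it turned to -0.23 with an offset for GC content and length (0.433; edgeR quasi-likelihood in each), a fit that called 22.2% of all tested genes. Cyba lies 1.67 Mb from the targeted gene Irf8 on chromosome 8.

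Of the cytosolic subunits, Ncf4 and Ncf1 lay on opposite sides of WT. Ncf4 (ENSMUSG00000071715, chromosome 15, 78244801 to 78262580, plus strand) encodes p40phox, which binds a phosphoinositide of the phagosome membrane. It had 111.5, 119 and 173 CPM in WT replicates 1 to 3 and 216, 198 and 250.1 CPM in IRF8KO replicates 1 to 3, so that every IRF8KO library was above every WT library. The log2 fold change of 0.72 (SE 0.28) had an unadjusted p of 0.027 and an adjusted p of 0.0976 (edgeR quasi-likelihood), so it was not called.

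Ncf1 (ENSMUSG00000015950, chromosome 5, 134220053 to 134229625, minus strand) encodes p47phox, the organizer that carries the cytosolic complex to p22phox once it is phosphorylated. It had 510.5, 530.4 and 648 CPM in WT replicates 1 to 3 and 474, 406 and 482.5 CPM in IRF8KO replicates 1 to 3, with every IRF8KO library below every WT library. Its log2 fold change was -0.31 (SE 0.28), with no call (adjusted p = 0.473, edgeR quasi-likelihood), whereas scaling by library size alone, which moves the median of all tested genes from -0.11 to -0.61, gave -0.81 and an adjusted p of 0.00972. Over all tested genes, 37.9% had groups that did not overlap, beside 3 of the 5 members other than Cybb (Ncf1, Ncf4 and Rac2).

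The ratio of Ncf1 to Ncf4 within a library does not depend on how libraries are scaled. It can depend on GC content and length, and it was not computed with that offset. The fits with the offset gave log2 fold changes of -0.34 for Ncf1 and 0.19 for Ncf4, against -0.31 and 0.72 without it. Per kb of exon it was 2.84, 2.77 and 2.33 in the WT libraries (replicates 1 to 3) against 1.36, 1.27 and 1.20 in the IRF8KO libraries (1 to 3). The ranges were apart, and the mean log2 ratio differed by -1.05 (1.40 ± 0.16 in WT, 0.35 ± 0.09 in IRF8KO; SD, n = 3 each). An exact two-sided permutation test gave p = 0.1, the smallest that 3 against 3 allows, and 0.133 when adjusted over the 4 ratios computed.

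Rac2 (ENSMUSG00000033220, chromosome 15, 78559167 to 78572783, minus strand), the Rac GTPase of blood-lineage cells, takes part in the oxidase in its GTP form. It had 191, 219.8 and 362 CPM in WT replicates 1 to 3 and 449, 379 and 439 CPM in IRF8KO replicates 1 to 3. The lowest IRF8KO library lay just above the highest WT library, and WT replicate 3 was far nearer to the IRF8KO libraries than to the other WT libraries. The log2 fold change was 0.71 (SE 0.31) with an unadjusted p of 0.043 and an adjusted p of 0.133 (edgeR quasi-likelihood). The ratio of Rac2 to Rac1 per kb was 0.803, 0.952 and 1.89 in WT and 2.32, 1.48 and 1.97 in IRF8KO, overlapping ranges with an exact two-sided permutation p of 0.2 (0.2 adjusted over the 4 ratios). The mean log2 ratio differed by 0.74 there but by 1.96 on the first strand's counts and 1.42 on the second's, where the ranges were apart (exact permutation p = 0.1 each). The strand counts add to Rac1 the reads it shares with Daglb on the other strand, 41.5% to 83.5% of its reads. Daglb alone had 1679 ± 752 CPM in WT and 563 ± 161 CPM in IRF8KO. The larger ratios thus do not compare Rac2 with Rac1 alone.

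Leaving out WT replicate 3 brought Ncf4 and Rac2, like Cyba, past the threshold, at 0.98 and 1.07 on the log2 scale (adjusted p = 0.00357 and 0.0017, edgeR quasi-likelihood). That fit called 33.5% of all tested genes. Ncf4 and Rac2 were also called after removing Apoe and scaling by library size, at 0.74 and 0.75 (adjusted p = 0.0122 and 0.0094, edgeR quasi-likelihood), and with the offset for GC content and length they missed the threshold again, at 0.19 and 0.57 (adjusted p = 0.48 and 0.0821).

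**Figure D3:**
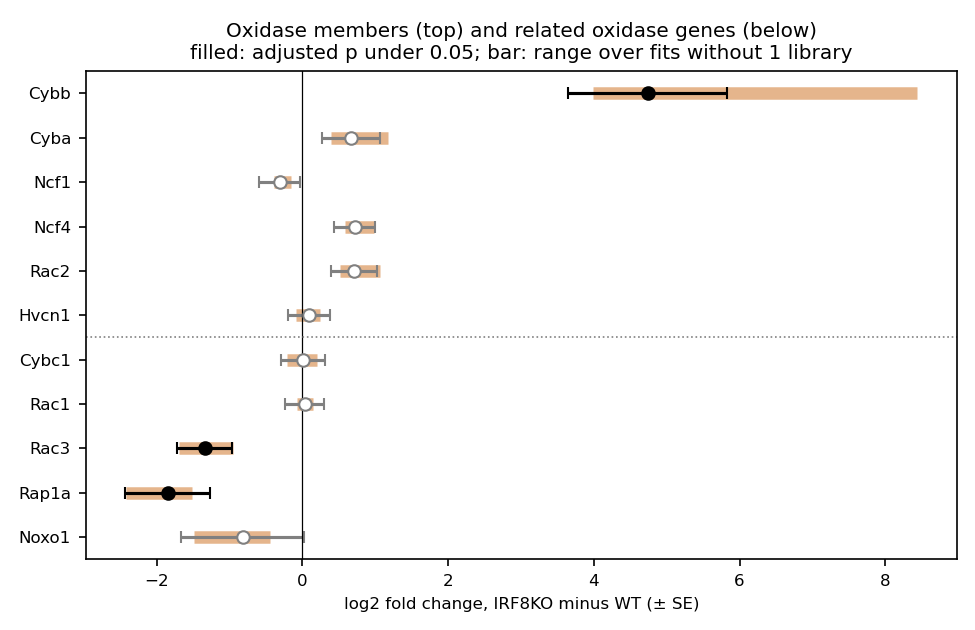
Fitted log2 fold change (IRF8KO minus WT) with its SE for the 6 oxidase genes above the dotted line and for related oxidase genes below it; filled points were called, and the bars span the fits that left out 1 library. Cybb, at 4.74, is the called gene above the line, and Rac3 and Rap1a, at -1.34 and -1.85, are called below it; Duoxa1, with 0 reads in IRF8KO, is not drawn.

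Hvcn1 (ENSMUSG00000064267, chromosome 5, 122206804 to 122242297, plus strand) had overlapping levels in the groups. Reads that fell on Hvcn1 alone gave 47.7, 72.9 and 70.6 CPM in WT replicates 1 to 3 and 73.0, 53.9 and 76.8 CPM in IRF8KO replicates 1 to 3. The log2 fold change was 0.09 (SE 0.29; edgeR quasi-likelihood, adjusted p = 0.858), and its sign turned in 5 of 19 alternatives, with values from -0.42 to 0.24. The exons of Hvcn1 overlap those of Tctn1, a gene on the opposite strand, over 44.2% of their length, and the count that ignores strand drops reads that fall on both genes.

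The dropped reads were the larger part. The 2 stranded counts of each file, added together, hold a gene's own reads plus those it shares with an antisense gene, and by this sum between 81.7% and 85.4% of the reads over Hvcn1 were shared with Tctn1. Own and shared reads together came to 408 ± 77.5 CPM for WT against 402 ± 65.4 CPM for IRF8KO (SD, n = 3 each), and the fit on such sums gave -0.03 on the log2 scale (SE 0.28; adjusted p = 0.949, edgeR quasi-likelihood). Reads on Tctn1 alone were few, at 15.1 ± 3.88 and 24.6 ± 5.86 CPM. Without strand the shared reads cannot be given to either gene, so the level of Hvcn1 lay somewhere between these bounds. Ncf1 overlaps Gtf2ird2 over 11.1% of its exons and shared between 24.6% and 28.7% of its reads; with these added it had 768 ± 92.2 CPM in WT and 613.5 ± 66.1 CPM in IRF8KO, a fitted log2 fold change of -0.34 (SE 0.27).

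**Figure D4:**
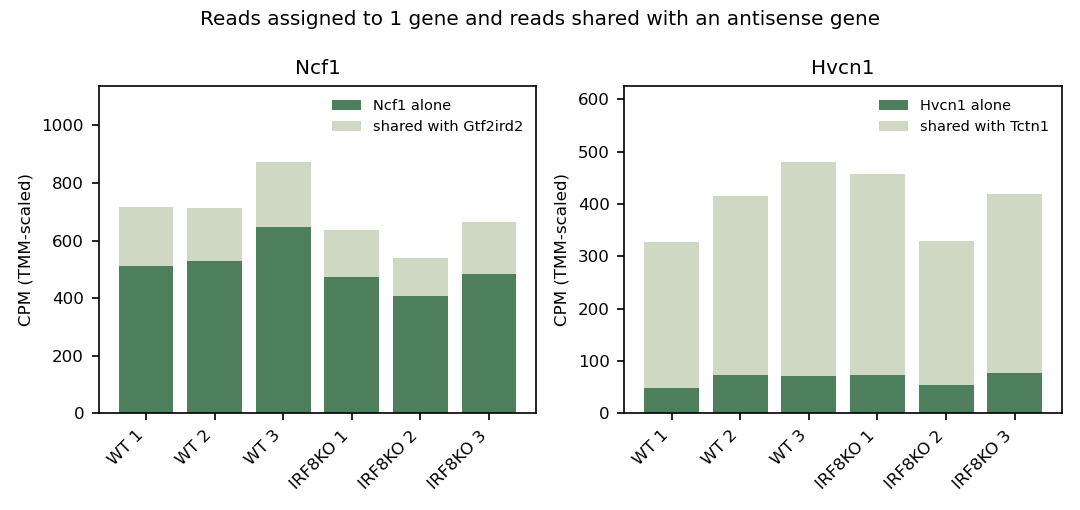
Stacked bars of CPM in each library for Ncf1 and Hvcn1: reads on that gene alone (dark) and reads shared with its antisense neighbour (light). The light part makes up 24.6% to 28.7% of the Ncf1 bars and 81.7% to 85.4% of the Hvcn1 bars, at a similar share in both groups.

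Compared per kb of exon not shared with another gene, the partners of the core stood at opposite ends. Cyba had 1132 ± 578 CPM per kb in WT and 1795 ± 392 in IRF8KO, above 99.8% of the tested genes in both groups. Cybb had 0.160 ± 0.267 CPM per kb in WT, above 4.09% of the tested genes, and 3.53 ± 2.20 in IRF8KO, above 53.8% (SD, n = 3 each). The ratio of Cybb to Cyba per kb, with 0.5 added to each count, was 0.000714, 1.96e-05 and 6.66e-06 in the WT libraries (replicates 1 to 3) against 0.00127, 0.0045 and 0.000982 in the IRF8KO libraries (1 to 3). The ranges were apart, though not on the second strand's counts; as Cybb passed the filter through IRF8KO only, no p is given for ratios with it. The mean log2 ratio differed by 5.29, and by 7.28 without WT replicate 1 and 3.91 without WT replicate 3. Even in IRF8KO replicate 2, the library with the highest ratio, Cybb transcripts were thus far below those of Cyba per length.

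The other subunits lay between these levels. In WT the order per kb ran from Ncf1 (173 ± 22.9 CPM per kb) to Rac2 (83.1 ± 29.4), Ncf4 (66.6 ± 16.6) and Hvcn1 (32.0 ± 7.02), and Rac2 and Ncf4 differed by less than their spread. In IRF8KO Ncf1 (139.5 ± 12.9) and Rac2 (136 ± 12.2) differed by less than their spread, Ncf4 followed (109.5 ± 13.1), and Hvcn1 stayed lowest of these (34.1 ± 6.16). The value of Hvcn1 counts its own reads over its unshared exons. As most reads over Hvcn1 were shared with Tctn1 and left out, its rank is not settled. The ratio of Hvcn1 to Cybb per kb was 49.4, 2006 and 2993 in the WT libraries (replicates 1 to 3) against 14.1, 4.49 and 19.8 in the IRF8KO libraries (1 to 3).

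**Figure D5:**
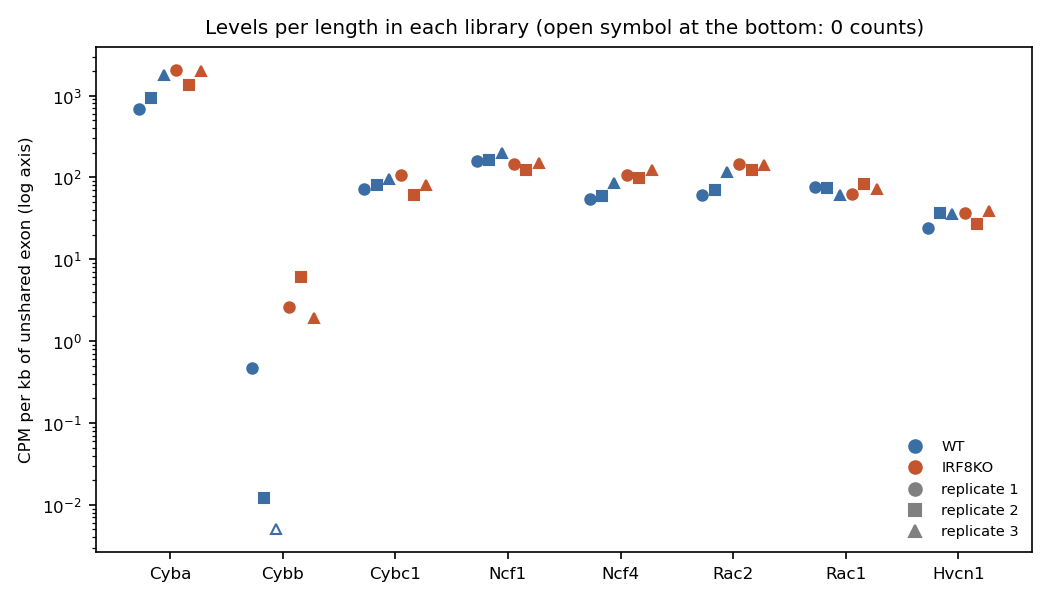
CPM per kb of unshared exon, on a log axis, for the 6 oxidase genes and for Cybc1 and Rac1 in each library; the open symbol marks the library with 0 Cybb reads. Cyba lies highest in every library and Cybb lowest, from 0 to 0.469 CPM per kb in WT and from 1.94 to 6.04 in IRF8KO.

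Other genes of the oxidase family were called lower or not called, and 7 had too few reads to test. Of 13 listed, 6 were tested. Duoxa1, Noxo1 and Rap1a reached the filter's level of 1.01 CPM in all 3 WT libraries but not in all IRF8KO libraries, so no count of calls is read from this list. Of the 3 that reached it in every library, Cybc1, Rac1 and Rac3, 1 was called lower and 0 higher. Over all tested genes 9.46% were called lower and 9.64% higher, and 3 genes are too few to read a direction from. Cybc1, a chaperone needed for gp91phox protein, had 342 ± 47.7 CPM (WT) and 345 ± 97.9 CPM (IRF8KO), and Rac1, the widely expressed Rac, had 155 ± 17.8 (WT) and 158 ± 22.4 CPM (IRF8KO; SD, n = 3 each). Neither was called (edgeR quasi-likelihood, adjusted p = 0.982 and 0.958), though scaling by library size alone called Cybc1 lower, at -0.52 (0.0428). Between 41.5% and 83.5% of the Rac1 reads were shared with Daglb on the other strand; with them included the log2 fold change of Rac1 was -0.97 (adjusted p = 0.0432), while Daglb alone had 1679 ± 752 CPM in WT and 563 ± 161 in IRF8KO.

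The 3 called genes of that list were Rac3, Rap1a and Duoxa1. Rac3, a Rac best known in neurons, fell from 45.7 ± 17.7 to 18.2 ± 7.23 CPM, -1.34 on the log2 scale (SE 0.38; adjusted p = 0.0295, edgeR quasi-likelihood), a call lost without IRF8KO replicate 2 (0.0877) or 3 (0.153) and on the first strand's counts (-1.04, 0.0962). Rap1a, a GTPase that was first purified together with the oxidase core, fell from 11.1 ± 4.003 to 3.02 ± 1.83 CPM, -1.85 on the log2 scale (SE 0.58; adjusted p = 0.044, edgeR quasi-likelihood). It reached the filter's level in 2 of 3 IRF8KO libraries and lost its call in 8 of 18 alternatives, with adjusted p up to 0.164 without IRF8KO replicate 3. Duoxa1, the maturation factor of the dual oxidase DUOX1, had 214 reads in WT in all and 0 in IRF8KO, at least 71.5-fold lower against a floor of 3 counts for the group. It passed the filter on low counts through its WT libraries only, so its call was largely fixed by the filter; its exons overlap another gene over 17.1% of their length. Nox3, Nox4, Noxa1, Duox2 and Duoxa2 had 0 reads in all 6 libraries, which allows up to 3 reads in each. Nox1 and Duox1 had 1 and 2 reads, all in WT replicate 2, and Noxo1, the organizer of the Nox1 complex, had 1.77 ± 0.4999 CPM (WT) against 0.995 ± 0.665 CPM (IRF8KO; SD, n = 3 each) and was not called.

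Among kinases, exchange factors and chaperones that prepare the oxidase for assembly, the called genes were lower. Of 25 listed and 24 tested, 6 fell and 0 rose, where 9.46% of all tested genes were called lower and 9.64% higher; the median log2 fold change was -0.70 against -0.11 over all tested genes, -0.32 against -0.05 with the GC and length offset, -0.44 against -0.09 without WT replicate 1 and -1.22 against -0.61 with library size alone. Vav2, an exchange factor that loads Rac with GTP, fell from 91.3 ± 16.9 to 29.5 ± 1.66 CPM (log2 fold change -1.63, SE 0.28), and Prex1, the Rac exchange factor driven by phosphoinositides, from 476 ± 32.7 to 224 ± 16.5 CPM (-1.09, SE 0.27). Pik3cg and Pik3cd, the catalytic subunits of phosphoinositide 3-kinase gamma and delta, fell from 95.7 ± 24.6 to 29.1 ± 16.6 and from 370.3 ± 56.9 to 178 ± 39.3 CPM (-1.71 and -1.06; SE 0.39 and 0.29). Their adjusted p were 0.00189, 0.0154, 0.0103 and 0.0248 (edgeR quasi-likelihood, Benjamini-Hochberg), and no library of one group overlapped the other for any of these 4. As these 4 were picked for the smallest p of the list, groups without overlap were likely. Over all tested genes, 17.9% had every IRF8KO library below every WT library. Vav2 kept its call in all 19 alternatives. The other 3 each lost it without IRF8KO replicate 1 or 3 (adjusted p from 0.0519 to 0.158), Prex1 and Pik3cd also without IRF8KO replicate 2 (0.0544 and 0.0865) and Pik3cd without WT replicate 2 (0.0634). The count of lower genes was 1 without IRF8KO replicate 1 or 3, 3 without IRF8KO replicate 2 or WT replicate 2, and 11 (with 2 higher) without WT replicate 3. Over all genes those fits called 520 of 11902 lower without IRF8KO replicate 1, 386 of 11440 without IRF8KO replicate 3, 1040 of 11381 without IRF8KO replicate 2, 550 of 11209 without WT replicate 2 and 1835 of 11953 without WT replicate 3.

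Genes that dispose of superoxide and peroxide were called mostly higher. Of 26 listed and 25 tested, 10 rose and 1 fell, where 9.64% of all tested genes were called higher; the median log2 fold change was 1.06. Prdx1, a peroxiredoxin that reduces peroxide, rose from 115 ± 9.79 to 412 ± 74.2 CPM (log2 fold change 1.84, SE 0.28), and Txn1, the thioredoxin that recharges it, from 18.4 ± 3.35 to 60.6 ± 15.1 CPM (1.71, SE 0.31). Gpx3, a secreted glutathione peroxidase, rose from 0.986 ± 1.295 to 18.4 ± 2.96 CPM (4.23, SE 0.78); WT replicate 3 held 18 of its 23 WT reads, and without that library the value was 6.13. Gpx3 passed the filter on low counts through its IRF8KO libraries only, so its call, 1 of the 10, is no support. Gclc, the catalytic subunit of the enzyme that starts glutathione synthesis, fell from 23.0 ± 4.41 to 2.90 ± 1.66 CPM (-2.97, SE 0.49). Their adjusted p were 0.00099, 0.00285, 0.00307 and 0.00161 (edgeR quasi-likelihood, Benjamini-Hochberg), and each kept its call in every alternative that tested it. The count of higher genes was 5 without WT replicate 2, IRF8KO replicate 1 or IRF8KO replicate 3 (1 lower in each), 14 with 4 lower without WT replicate 3, and 8 with 3 lower when scaled by library size alone. Over all genes the calls higher were 621 of 11209, 627 of 11902 and 524 of 11440 in the first 3 of these fits, 2168 of 11953 without WT replicate 3 and 651 of 11041 with library size alone. Markers of other brain cells differed between the groups as well: the 6 neuronal markers summed to between 0.283 and 8.27 CPM in WT and between 19.0 and 25.5 CPM in IRF8KO, and the 6 astrocyte markers to between 174 and 213 CPM in WT and between 114 and 196 CPM in IRF8KO, with Aldh1l1 called higher and Slc1a3 lower. Slc1a3 was the largest part of the WT astrocyte sum, with 152 ± 58.5 CPM in WT and 8.76 ± 6.54 CPM in IRF8KO. Aldoc went the other way, with 33.8 ± 39.1 CPM in WT and 106 ± 32.8 CPM in IRF8KO, and was not called. Gfap (3.02 ± 2.55 and 15.7 ± 7.78 CPM) and Slc1a2 (0.134 ± 0.0619 and 4.18 ± 2.38 CPM) passed the filter in full in IRF8KO only, so their calls are not counted. The 6 endothelial markers summed to between 18.6 and 30.2 CPM in WT and between 1.77 and 9.98 CPM in IRF8KO. Pecam1 made up most of the WT sum (19.1 ± 1.70 CPM, against 1.95 ± 1.255 CPM in IRF8KO). Flt1 went the other way, with 0 reads in WT and 0.80, 7.90 and 6.40 CPM in IRF8KO replicates 1 to 3. The 6 oligodendrocyte markers ran from 284 to 696 and from 475 to 686.5 CPM, with Cnp called lower (186 ± 79.8 to 45.2 ± 14.8 CPM) and Mbp not called (152 ± 116 and 437 ± 95.2 CPM). Their part in these differences was not tested.

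Most genes that supply NADPH, the electron donor, were not called. Of 10 listed and 9 tested, 1 rose, where 9.64% of all tested genes were called higher: Pgls, an enzyme of the pentose phosphate pathway, from 105 ± 57.5 to 242 ± 44.3 CPM (log2 fold change 1.21, SE 0.37; edgeR quasi-likelihood, adjusted p = 0.0411). Its exons overlap another gene over 20.6% of their length, and it lost its call in 6 of 19 alternatives, among them without WT replicate 1 or 2 or IRF8KO replicate 1 or 3 (adjusted p up to 0.172). Without WT replicate 3, 5 of the 9 were called higher, in a fit that called 2168 of all 11953 tested genes higher. Taldo1, of the same pathway, had 225 ± 83.9 and 389 ± 80.7 CPM, and Me2 and Idh1, which make NADPH or NADH outside it, had 11.3 ± 1.53 and 4.77 ± 2.19 CPM and 16.4 ± 4.51 and 8.70 ± 3.26 CPM in WT and IRF8KO; none of these 3 was called by edgeR. Other fits did call Me2 lower, with limma-voom (adjusted p = 0.0464) and library size alone (0.0284), and Taldo1 higher, with library size after removing Apoe (0.0101) and without WT replicate 3 (0.00234).

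Of 6 nuclear factors known from work on oxidase promoters, 0 were called in edgeR, 0 in DESeq2 and 0 in limma-voom, and 2 had an unadjusted p under 0.05 in edgeR, as did 33.7% of all tested genes. These were Irf2, with 32.5 ± 8.65 CPM in WT and 15.8 ± 7.03 CPM in IRF8KO, and Irf1, with 125 ± 28.4 and 205 ± 47.7 CPM (edgeR quasi-likelihood, adjusted p = 0.0864 and 0.115; SD, n = 3 each). Elf1 had 21.3 ± 10.5 and 12.01 ± 3.15 CPM. Other edgeR fits did call members: 2 lower with library size alone (Irf8 among them), Irf1 higher with library size after removing Apoe (adjusted p = 0.0179) and with the GC and length offset (0.0341), 1 lower without IRF8KO replicate 2, and 1 higher and 2 lower without WT replicate 3, where 33.5% of all tested genes were called.

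Markers of lymphocytes, which also use Rac2 and Hvcn1, were compared as well. The 11 B cell markers summed to between 543 and 891 CPM in WT and between 37.2 and 48.3 CPM in IRF8KO. Ighm made up most of the WT sum, at 453.5, 555.8 and 756.5 CPM in WT replicates 1 to 3. It had 17.7 ± 3.65 CPM in IRF8KO (SD, n = 3). Cd79a averaged 0.226 CPM in WT and 0.222 CPM in IRF8KO. Ms4a1, Igkc, Pax5, Blk and Fcer2a had 0 reads in every library. The 12 markers of T and NK cells summed to at most 0.778 CPM in WT and between 4.17 and 6.82 CPM in IRF8KO. Most of the IRF8KO sum was Cd4, at 4.17, 3.32 and 4.45 CPM in IRF8KO replicates 1 to 3 and 0 in WT, while Cd3d had no read in IRF8KO and Cd3e, Cd3g, Cd2, Cd8a, Ncr1 and Gzma had none in any library. Their part in the levels of Rac2 and Hvcn1 was not tested.

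Among the IRF8KO libraries Cybb and the other members were not highest in the same one: IRF8KO replicate 2 was the highest for Cybb and the lowest for Cyba, Ncf1, Ncf4, Rac2 and Hvcn1. For each member the 2 tested genes with the most similar profile over the 6 libraries were taken, among those averaging 10 CPM or more, by the Pearson correlation of log2 CPM, which reads group differences and shared library properties alike. They were Fry and Zbtb16 for Cybb (0.988 and 0.983), Naxe and Imp4 for Cyba (0.999 each), Igfbp4 and Tpra1 for Ncf1 (0.996 and 0.994), Banf1 and Snrpd2 for Ncf4 (0.998 and 0.997), Mif and Flot2 for Rac2 (0.999 each) and Coq5 and Jmjd8 for Hvcn1 (0.981 and 0.980). No member was among the 2 nearest genes of another, though by the same measure Rac2 correlated at 0.98 with Ncf4 and 0.96 with Cyba. With Cybb the correlation was 0.6 for Ncf4, 0.5 for Rac2, 0.28 for Cyba, -0.25 for Hvcn1 and -0.89 for Ncf1. These values describe 6 libraries that share group and depth, and none was tested.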

How the data were processed

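Polyadenylated RNA of sorted microglia was sequenced as SMART-Seq v4 and Nextera XT libraries, per the labels, without strand information or molecular identifiers. The deposited files hold raw counts per gene by the authors in the layout of STAR, 1 count that ignores strand and 2 by strand. The submitters' processing notes name STAR 2.5.2b, Picard 2.17.11, Subread, featureCounts and build mm10; the annotation release is not given in the sources used here. Of 49585 gene identifiers, 49326 matched GENCODE M21 (GRCm38) and 259 did not. The test on the strand-ignoring counts used R 4.3.3 and edgeR 4.0.16: expression filter (minimum count 10), TMM scaling, quasi-likelihood F test, two-sided, genotype as the single term, all 6 libraries. The fits were tested on simulated data. Standard errors came from the F statistic; log2 CPM had a prior count of 2. Alternatives were other scalings, DESeq2 1.42.0, limma-voom 3.58.1, other filters, the stranded counts, a GC and length offset, a replicate block and leaving out each library. Intervals cover counting error only. Named genes were the members, Irf8, the tested family genes, the 4 smallest p per other list and the 2 nearest profiles per member; members and lists were chosen with earlier results of these data known. Replicates 1 to 3 of the genotypes share only a number. Some genes of the lists are not reported here and were left out of the lists' counts and sums.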

Additional observations from a re-analysis of the deposited data

How the results depend on the processing

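With 3 libraries a group and 3658917 to 11098363 counts each, single libraries set many calls; where a value changed below and no cause is named, the cause was not tested. Leaving out 1 library gave log2 fold changes of 3.99 to 8.44 for Cybb, 0.39 to 1.18 for Cyba, -0.39 to -0.16 for Ncf1, 0.59 to 0.98 for Ncf4, 0.52 to 1.07 for Rac2 and -0.09 to 0.24 for Hvcn1, and 910 to 4003 called genes in place of 2109. Cybb could not be tested with at least 10 counts in every library. It was called in 16 of 18 alternatives, which is no support, as it passed the filter through IRF8KO only. It was not called with library size alone (4.12) or with library size after removing Apoe (4.61). That last setting, which changes both the scaling and the genes, gained calls for Cyba (0.72), Ncf4 (0.74) and Rac2 (0.75), and library size alone gained one for Ncf1 (-0.81). Library size alone gave 25.4% higher among its calls, against 50.5%. Signs turned for Cyba with the GC and length offset (-0.23) and for Hvcn1 with library size alone (-0.42), the first (-0.01) and second strand (-0.07) and, chosen after seeing the data, both strands summed (-0.03), and without WT replicate 1 (-0.09). Cybc1 turned with library size alone (-0.52), upper quartile (-0.05), Apoe removed and library size (-0.02), limma-voom (-0.01), no filter (-0.05), the strict filter (-0.01), the replicate block (-0.02), the second strand (-0.05) and without WT replicate 1 (-0.09), WT replicate 2 (-0.01) or IRF8KO replicate 1 (-0.21), against 0.2 without IRF8KO replicate 2. Rac1 turned with library size alone (-0.48), upper quartile (-0.01), the first (-1.03), second (-0.90) and both strands (-0.97) and without WT replicate 3 (-0.02) or IRF8KO replicate 2 (-0.07), against 0.14 without IRF8KO replicate 1. The 4 ratios kept their direction under every alternative run. Same-numbered libraries had correlated deviations of -0.260, 0.328 and 0.114, so the numbers were not taken as pairs; the replicate block gave 2353 called genes, a log2 fold change of 5.45 for Cybb, and no gained or lost call among the 6 members.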

Other observations

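Within the peroxide-disposal list, and picked after their values were seen, 5 of the 6 peroxiredoxins were called higher in IRF8KO, where 9.64% of all tested genes were: Prdx1, Prdx3, Prdx4, Prdx5 and Prdx6, by 1.84, 0.97, 1.69, 1.17 and 1.82 on the log2 scale (adjusted p = 0.00099, 0.0224, 0.00351, 0.033 and 0.00344, edgeR quasi-likelihood). Prdx2 had 66.3, 71.0 and 126 CPM in WT replicates 1 to 3 and 170, 111 and 134 CPM in IRF8KO replicates 1 to 3 and was not called. Prdx1, Prdx4 and Prdx6 kept their calls in all 19 alternatives, whereas Prdx3 and Prdx5 kept theirs in 2 of the 6 fits that left out 1 library (adjusted p up to 0.0924 and 0.161). The superoxide dismutases Sod1 (cytosolic) and Sod2 (mitochondrial) rose as well, from 11.6 ± 2.37 to 29.0 ± 6.46 CPM and from 26.6 ± 5.12 to 57.1 ± 6.33 CPM, by 1.33 and 1.10 on the log2 scale (adjusted p = 0.0217 and 0.0185, edgeR), and each was called in 2 of the 6 fits without 1 library (adjusted p up to 0.0995 and 0.097). Sod3, the extracellular dismutase, had 6, 0 and 0 reads in WT replicates 1 to 3 and 11, 5 and 24 in IRF8KO replicates 1 to 3 and was not called (adjusted p = 0.279). Catalase (Cat), in peroxisomes, had 45.3, 46.1 and 21.1 CPM in WT replicates 1 to 3 and 22.1, 28.7 and 27.4 CPM in IRF8KO replicates 1 to 3 and was not called.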
